A study of Mus musculus with 6 samples.

Results

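The nucleosome remodelling and deacetylation (NuRD) complex, the other chromodomain helicases of the CHD family, the ISWI helicase Smarca5 and the SWI/SNF complexes were examined at the level of their messenger RNAs, as 36 genes listed by complex membership, of 18193 genes that the arrays could be read for. The cells were LSK cells (lineage-negative, Sca1-positive, c-Kit-positive), the fraction of bone marrow in which haematopoietic stem cells and multipotent progenitors are found, sorted from C57BL/6 mice aged 6 to 7 weeks. Mice homozygous for the hypomorphic IkL allele of Ikzf1 (IkL/L), which make less functional Ikaros in every cell and not in 1 lineage alone, were set against wild-type (WT) mice. There were 3 arrays per genotype. Each IkL/L sample was a pool of 2 mice and each WT sample came from 1 mouse, so pooling and genotype cannot be told apart. All 36 genes had at least 1 probe set of their own, and a gene was read from the brightest of these.

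Chromatin remodellers use ATP to slide, eject or exchange nucleosomes. NuRD joins such a motor, Chd3 or Chd4 (also named Mi-2α and Mi-2β), to the histone deacetylases Hdac1 and Hdac2, to Mta and Gatad2 scaffold proteins, to the histone-binding proteins Rbbp4 and Rbbp7 and to Mbd2 or Mbd3, while SWI/SNF is built around Smarca2 or Smarca4 (Brm and Brg1) and comes as BAF, with Arid1a or Arid1b, or as PBAF, with Arid2, Pbrm1 and Brd7. Ikaros, a zinc finger protein of lymphoid and progenitor cells, binds NuRD through Chd4 and has also been found with SWI/SNF, and the comparison asks whether cells short of Ikaros carry these partners at another level.

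None of the 36 genes passed the test for a difference between IkL/L and WT cells. At an adjusted p under 0.05 in limma, 0 were higher and 0 were lower in IkL/L cells, where 0.748% of all genes were called higher (136 genes) and 0.242% lower (44 genes), so that fewer than 1 call would be drawn from 36 genes at the background rate. The lowest adjusted p among the members was 0.181 in limma, for Chd6. At an unadjusted limma p under 0.05, 1 member was higher and 3 were lower, beside 5.83% and 5.35% of all genes. In the probe sets used, the log2 differences ran from -0.39 for Chd6 to 0.29 for Mta2. No member so read differed by over 1.5-fold, which 2.55% of all genes did upwards and 0.89% downwards.

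For the probe set used for each gene, the arrays set a limit to the size of change that could have been missed. In 29 of the 36 genes (80.6%) the 95% interval of the difference lay within 1.5-fold either way, as it did in 82.9% of all genes and in 76.3% of genes with a mean log2 value of at least 6. In the other 7, Chd3, Chd4, Mta2, Mta3, Mbd3, Chd6 and Arid1b, the interval reached past 1.5-fold. The limit does not extend to every probe set of the 29 genes. Intervals were -0.25 to 2.52 for Chd2 probe set 1445843_at and 0.05 to 1.18 for Mbd2 probe set 1425803_a_at. For Smarca2 probe set 1452333_at the interval was -0.42 to 1.6. The median half-width of the interval was 0.27 for the members and 0.27 for all genes on the log2 scale. In 34 members the difference was under 0.3 in size and in 16 it was under 0.1.

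**Figure D1:**
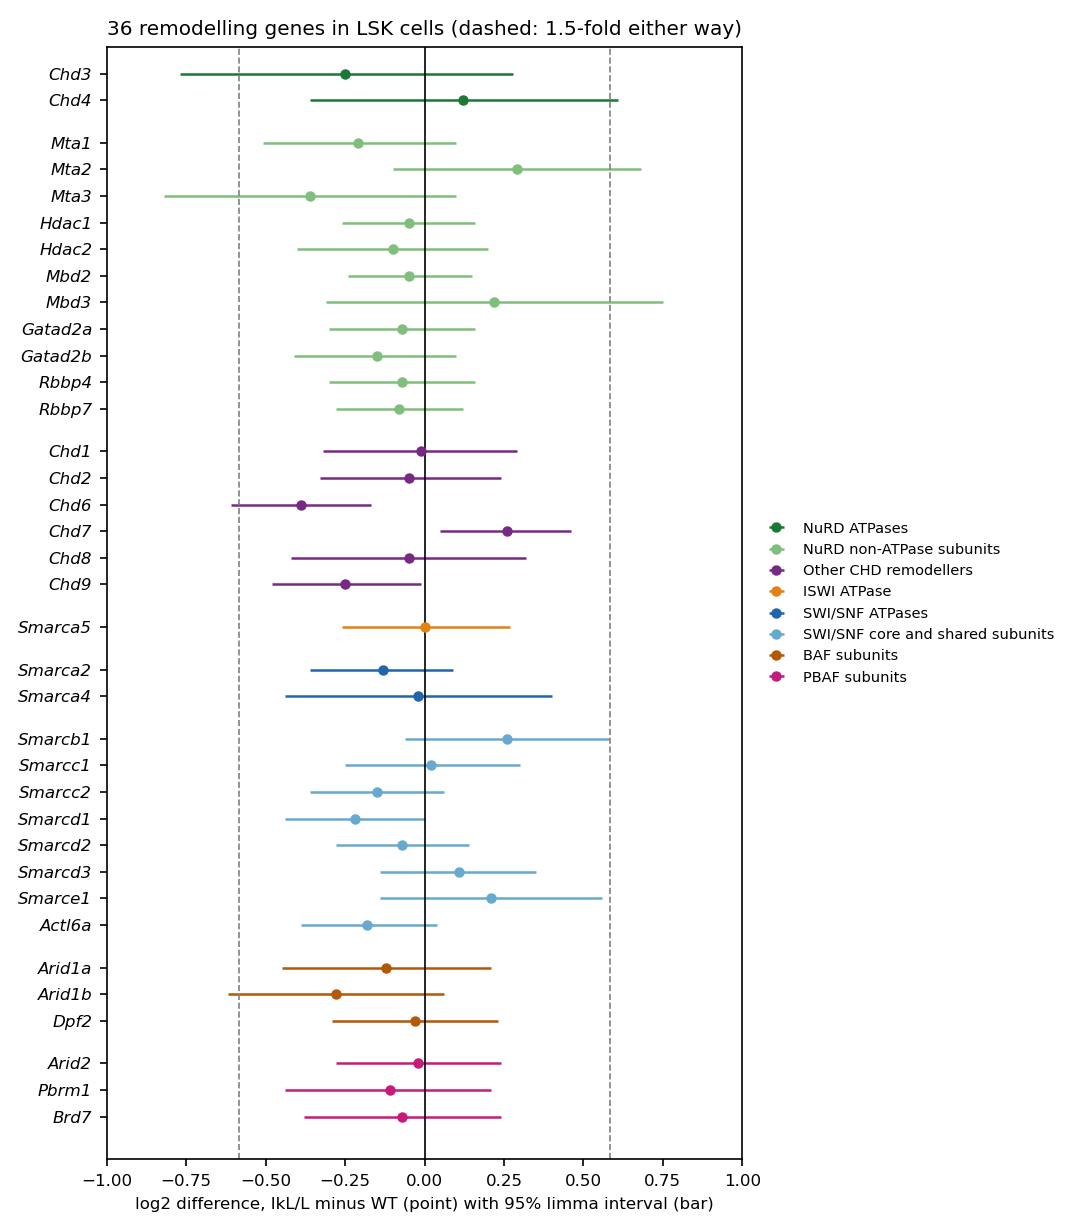
Log2 difference of IkL/L minus WT for each of the 36 genes (horizontal axis; point) with its 95% limma interval (bar, n = 3 arrays per group), in the order of the complexes. All points lie inside the dashed lines at 1.5-fold, and the intervals of 7 genes cross one of them.

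The targeted gene was lower in the mutant arrays. Ikzf1 read 10.77, 10.85 and 10.93 on the IkL/L arrays, against 11.57, 11.59 and 11.44 on the WT arrays. The groups did not overlap, and the log2 difference of -0.68 passed the test (limma, adjusted p = 0.0307). Without 1 array the adjusted p rose to as much as 0.157 in limma, and the call held in 1 of 6 such fits, that without WT 3. A second, dimmer probe set of Ikzf1 gave -0.21, and the position of either probe set against the mutation was not examined. Values are on the deposited log2 scale, made by RMA (robust multiarray average), which gives no detection call, so a value near the array medians of 4.79 to 4.88 cannot be told from background. The array WT 2 had the lowest mean correlation with the others, 0.9885 against 0.9914 to 0.9926, and member differences that moved by over 0.1 without it are given both ways. Of the LSK markers, Kit and Cd34 lay between 11.07 and 12.27 on all arrays, and the mean of the 6 measured was 10.58 to 10.80 on IkL/L arrays and 10.71 to 10.89 on WT arrays, with 0 called. Within that list Flt3, a receptor of lymphoid-primed progenitors, was lower on every IkL/L array (-0.88; limma, adjusted p = 0.132) and Gata2 higher on every IkL/L array (0.30; limma, adjusted p = 0.631). Of markers of other cells, 3 of 6 granulocyte-monocyte progenitor genes were called higher in IkL/L cells, with a list mean of 12.07 to 12.48 on IkL/L arrays and 10.67 to 11.20 on WT arrays. For 7 mature myeloid genes the means overlapped, at 4.73 to 5.50 on IkL/L arrays and 4.53 to 5.29 on WT arrays, with 0 called. For 5 T and NK cell genes they also overlapped, at 4.79 to 4.89 on IkL/L arrays and 4.72 to 4.87 on WT arrays, with 0 called. The means of 4 erythroid genes were 8.14 to 9.02 on IkL/L arrays and 7.27 to 7.61 on WT arrays, with 0 called. The means of 5 megakaryocyte genes were 8.62 to 9.07 on IkL/L arrays and 7.76 to 8.28 on WT arrays, with 1 called higher. The means of 5 B lineage genes were 5.27 to 5.73 on IkL/L arrays and 4.92 to 5.03 on WT arrays. Signs differed within that list. Ms4a1 was called higher (2.38), and Cd79a and Cd79b gave 0.23 and 0.40 without passing, with Cd79b higher on every IkL/L array. The B lineage factors Pax5 and Ebf1 gave -0.22 and -0.23 without passing. Ebf1 was lower on every IkL/L array, but only by 3.75 on IkL/L 3 against 3.76 on WT 2 and WT 3. All its values lay under the array medians, and 3 of its 5 probe sets had that sign. The 6 stroma and endothelium genes averaged 5.58 to 5.88 on IkL/L arrays and 5.50 to 6.78 on WT arrays, with Cdh5 called higher (limma, adjusted p = 0.00274) and Col1a1 lower on every IkL/L array without passing (-1.43). In bulk samples a different mix of cells and a different level per cell cannot be told apart, and the part of these markers in the remodeller values was not tested.

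Among the motors, the clearest separation was in Chd6, a CHD helicase outside NuRD. Chd6 read 8.70, 8.76 and 8.70 on the IkL/L arrays, against 9.15, 9.18 and 9.01 on the WT arrays. Every IkL/L array lay below every WT array, and arrays of 1 genotype lay close together. The mean was 8.72 ± 0.03 in IkL/L cells and 9.11 ± 0.09 in WT cells (SD, n = 3), a log2 difference of -0.39 (95% interval -0.61 to -0.17), or 1.31-fold lower, which did not pass after adjustment (limma, unadjusted p = 0.00322, adjusted p = 0.181). Leaving out each array in turn gave -0.44 to -0.36. The dimmer probe set of Chd6, with a mean of 5.32, gave -0.12 with overlapping groups, and -0.39 without WT 2.

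Chd9, a further CHD helicase, read 9.29, 9.14 and 9.15 on the IkL/L arrays, against 9.55, 9.43 and 9.34 on the WT arrays. The groups stood apart by a narrow margin, between IkL/L 1 and WT 3. The log2 difference was -0.25 (95% interval -0.48 to -0.01; limma, unadjusted p = 0.0405, adjusted p = 0.534). The other probe sets of Chd9 gave -0.42 and 0.10, neither with groups that stood apart.

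Chd7, the helicase mutated in human CHARGE syndrome, was the member whose IkL/L arrays all lay above the WT arrays. It read 4.53, 4.57 and 4.48 on the IkL/L arrays, against 4.26, 4.26 and 4.29 on the WT arrays. All 6 values lay below the array medians, so this difference of 0.26 (limma, unadjusted p = 0.0191, adjusted p = 0.415) is between levels that cannot be told from background. The second probe set of Chd7 gave 0.12 at a mean of 3.69.

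The remaining CHD helicases outside NuRD differed by 0.05 or less in the probe sets used, while the 4 probe sets of Chd1 ran from -0.30 to 0.22. Chd1, which recognises methylated histone H3, gave -0.01, Chd2 gave -0.05, and Chd8, a regulator of beta-catenin target genes, gave -0.05, and -0.15 without WT 2, all with overlapping groups. The 8 CHD genes had a median difference of -0.05, with 2 above 0 and 6 below.

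The NuRD motors spread more between WT arrays than between the genotypes. Chd4 read 9.59, 9.77 and 9.88 on the IkL/L arrays, against 9.91, 9.11 and 9.85 on the WT arrays. WT 2 was the lowest of all arrays and the other WT arrays lay at the upper end of the IkL/L range. The difference was 0.12 (95% interval -0.36 to 0.61; limma, adjusted p = 0.912), and -0.13 without WT 2. Chd3, the paralog of Chd4, read 8.47, 8.66 and 8.47 on the IkL/L arrays, against 9.24, 8.24 and 8.86 on the WT arrays. WT 2 was again the lowest array and the other WT arrays lay above all IkL/L arrays. The difference was -0.25 (95% interval -0.77 to 0.28; limma, adjusted p = 0.82), and -0.51 without WT 2 (limma, unadjusted p = 0.00794, adjusted p = 0.32). Leaving out each array in turn gave -0.51 to -0.02 for Chd3, so its size depended on the array left out.

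The NuRD deacetylases were close between genotypes. Hdac1 read 10.32, 10.26 and 10.21 on the IkL/L arrays, against 10.32, 10.38 and 10.25 on the WT arrays, a difference of -0.05 (95% interval -0.26 to 0.16). Hdac2 read 10.81, 10.59 and 10.98 on the IkL/L arrays, against 10.74, 11.02 and 10.91 on the WT arrays, a difference of -0.10 (95% interval -0.40 to 0.20). Both intervals lay within 1.5-fold, and the groups overlapped in both genes.

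The Mta scaffolds, which hold the deacetylases in the complex, differed in sign. Mta2 averaged 9.50 ± 0.21 in IkL/L cells and 9.20 ± 0.28 in WT cells, and Mta3 averaged 9.02 ± 0.30 in IkL/L cells and 9.38 ± 0.32 in WT cells (SD, n = 3 each). The differences were 0.29 (95% interval -0.10 to 0.68) and -0.36 (-0.82 to 0.10), with overlapping groups in both, and Mta1 gave -0.21 (-0.51 to 0.10). Without WT 2 they were 0.23 for Mta2, -0.52 for Mta3 (limma, unadjusted p = 0.0248, adjusted p = 0.504) and -0.10 for Mta1. With each array left out in turn, Mta3 ran from -0.52 to -0.19. Its other probe sets, at means of 8.9 and 5.96, gave -0.2 and -0.04 with overlapping groups. The methyl-CpG-binding protein Mbd2 gave -0.05, with values of 9.27, 9.27 and 9.24 on the IkL/L arrays, against 9.30, 9.31 and 9.30 on the WT arrays. Its groups stood apart by 0.03, which shows how small a shift can separate 3 arrays from 3. Its relative Mbd3, which in mammals has lost binding to methylated DNA, gave 0.22, and -0.04 without WT 2, the lowest array at 7.24.

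The scaffolds Gatad2a and Gatad2b gave -0.07 and -0.15, and the histone chaperones Rbbp4 and Rbbp7 gave -0.07 and -0.08. The 5 probe sets of Gatad2b ran from -0.30 to 0.13. In 1437507_at (-0.30) and 1447026_at (-0.26, at a mean of 4.51) every IkL/L array lay below every WT array, and in the others the groups overlapped. The probe sets used for Hdac2, Gatad2a, Rbbp4 and Rbbp7 carry the suffixes _s_ or _x_, which mark possible binding of related transcripts. Over the 13 NuRD genes the median difference was -0.07, with 3 above 0 and 10 below.

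**Figure D2:**
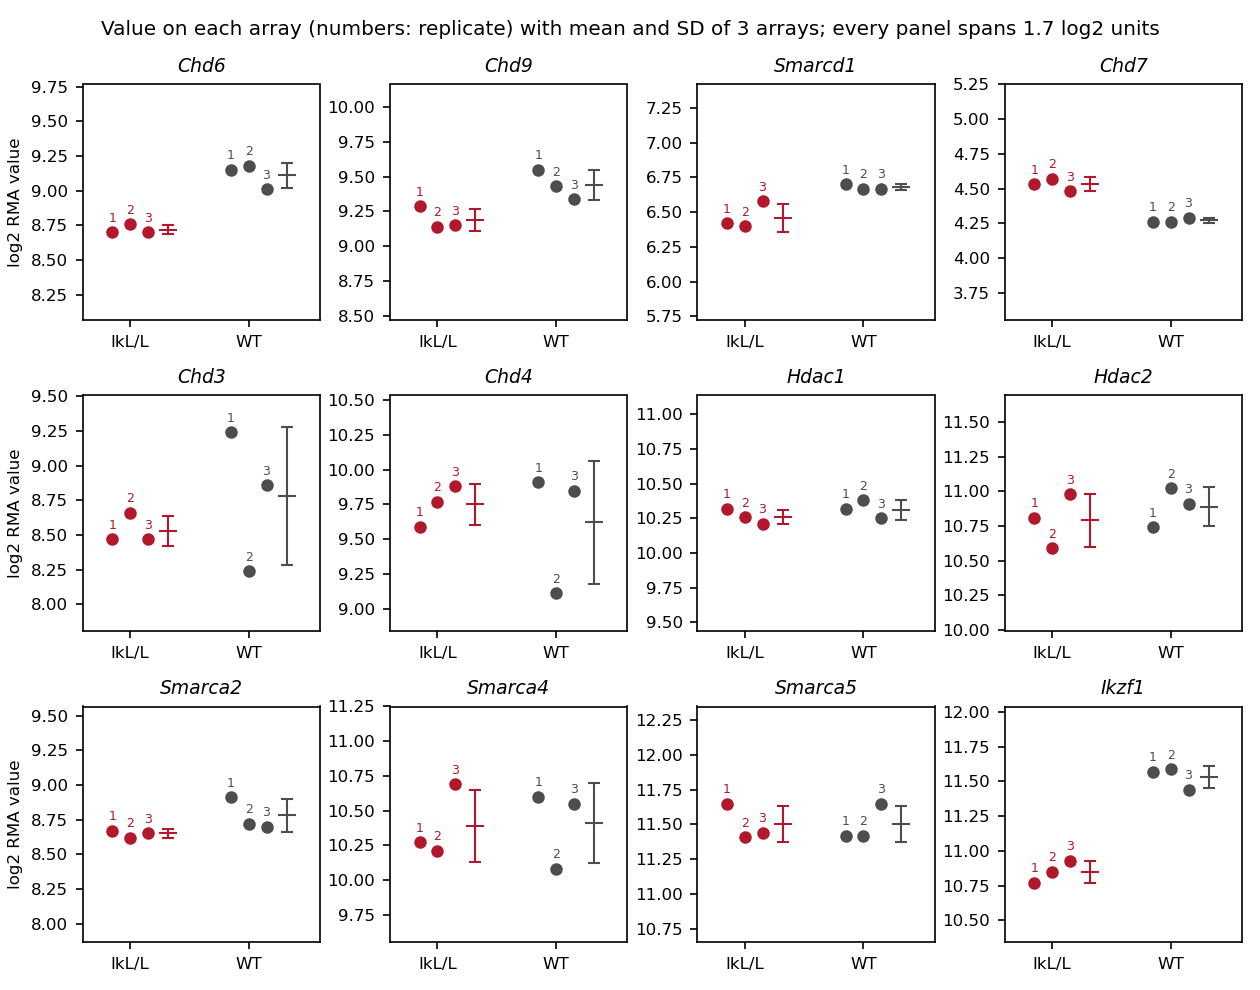
Log2 RMA value (vertical axis, the same span in each panel) of 12 genes on each array, with the replicate number beside the point and the mean and SD of 3 arrays as a bar, IkL/L left and WT right. The groups stand apart in Chd6, Chd9, Smarcd1, Chd7, Smarca2 and Ikzf1, and WT 2 is the lowest array in Chd3, Chd4 and Smarca4.

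The SWI/SNF motors and the ISWI motor did not pass either. Smarca4 read 10.27, 10.21 and 10.69 on the IkL/L arrays, against 10.60, 10.08 and 10.55 on the WT arrays, a difference of -0.02 (95% interval -0.44 to 0.40), and -0.19 without WT 2. Smarca2 read 8.67, 8.62 and 8.65 on the IkL/L arrays, against 8.91, 8.72 and 8.70 on the WT arrays, a difference of -0.13 (95% interval -0.36 to 0.09; limma, adjusted p = 0.767). In Smarca4 the ranges of the genotypes overlapped, while in Smarca2 they stood apart by less than the spread of the WT arrays. Smarca5, the ATPase of the ISWI remodellers that space nucleosomes, read 11.65, 11.41 and 11.44 on the IkL/L arrays, against 11.42, 11.42 and 11.65 on the WT arrays. Its groups were nearly the same set of values, with a difference of 0.00 (95% interval -0.26 to 0.27; limma, adjusted p = 0.996).

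Of the 8 core and shared SWI/SNF subunits, Smarcd1 separated the genotypes most. Smarcd1, a BAF subunit that contacts transcription factors, read 6.42, 6.40 and 6.58 on the IkL/L arrays, against 6.70, 6.67 and 6.67 on the WT arrays. All IkL/L arrays were below all WT arrays, with IkL/L 3 the nearest to them. The difference was -0.22, or 1.16-fold lower (limma, unadjusted p = 0.0494, adjusted p = 0.564), and the other probe set, at a mean of 3.25, gave 0.06. Its paralogs Smarcd2, which is needed for granulocyte formation in mouse and human, and Smarcd3 gave -0.07 and 0.11, and Smarcd3 lay at a mean of 4.64, under the array medians.

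The other core subunits had differences on both sides of 0. Smarcb1, a tumour suppressor lost in human rhabdoid tumours, gave 0.26 (95% interval -0.06 to 0.58), and 0.12 without WT 2. A Smarcb1 probe set of nearly the same brightness, 1435856_x_at, gave -0.11, with every IkL/L array below every WT array. The DNA-binding subunit Smarce1 gave 0.21, the scaffolds Smarcc1 and Smarcc2 gave 0.02 and -0.15, and the actin-like protein Actl6a gave -0.18. In Smarcc2 and Actl6a all IkL/L arrays were below all WT arrays. The probe set used for Actl6a carries the suffix _x_, and its other probe sets gave -0.03 and -0.09 with overlapping groups. The 4 probe sets of Smarcc1 ran from -0.33 to 0.34. The 8 genes had a median difference of -0.02, with 4 above 0 and 4 below.

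In the probe sets used, the subunits that set BAF and PBAF apart all had differences below 0, of which none passed. Arid1b gave -0.28 (95% interval -0.62 to 0.06), with WT 2 the highest array at 9.51, and -0.13 without it. Its paralog Arid1a, a frequent tumour suppressor, gave -0.12, and -0.02 without WT 2, and Dpf2, which reads modified histones, gave -0.03. Of the PBAF subunits, Arid2 gave -0.02, the bromodomain protein Pbrm1 gave -0.11 and Brd7 gave -0.07. Other probe sets gave 0.12 and 0.11 for Pbrm1, 0.15 for Dpf2, 0.13 for Brd7 and -0.29 for Arid1a. Those of Arid2 ran from -0.14 to 0.06. The median was -0.12 for the 3 BAF genes and -0.07 for the 3 PBAF genes, and -0.07 for all 16 SWI/SNF genes.

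Over all 36 genes the median log2 difference was -0.07, against -0.02 for all genes and 0.00 for genes with a mean of at least 6. The difference was below 0 in 27 members (75%), as in 55.5% of all genes and 50.4% of those with a mean of at least 6. In 8 members (22.2%) every IkL/L array lay below every WT array, as in 9.59% of all genes and 9.81% of those with a mean of at least 6. These were Mbd2, Rbbp7, Chd6, Chd9, Smarca2, Smarcc2, Smarcd1 and Actl6a, with differences from -0.05 to -0.39. In 1 member, Chd7, every IkL/L array lay above, as in 7.62% of all genes. These shares describe the list. Genes of 1 array vary together, so that they are not separate measurements, and the median of the members' deviations from their own means was -0.04, -0.07 and 0.01 on the IkL/L arrays, against 0.06, -0.01 and 0.06 on the WT arrays. On that measure WT 2 lay between IkL/L arrays, and the genotypes overlapped.

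**Figure D3:**
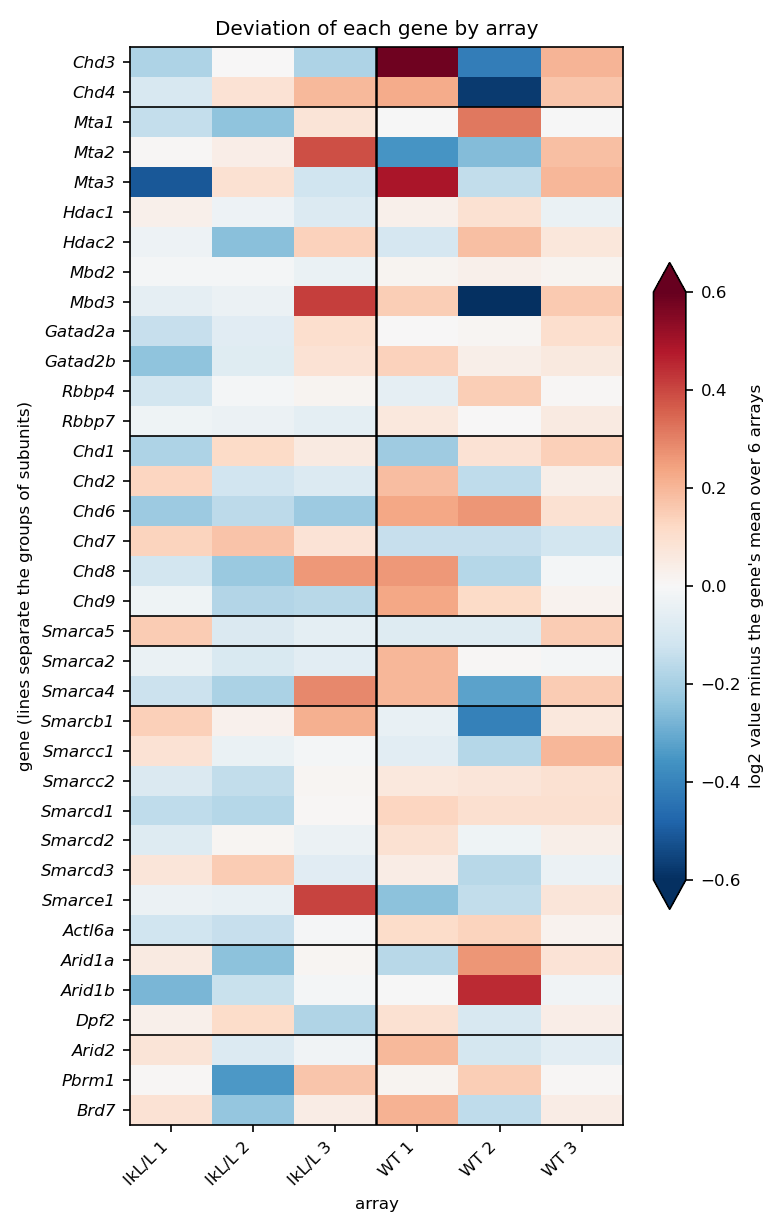
Deviation of each gene from its mean over the 6 arrays (colour, log2 units, limited to 0.6 either way), genes in rows by complex and arrays in columns, IkL/L left and WT right. WT 2 holds the lowest values of Chd3, Chd4, Mbd3 and Smarcb1 and the highest of Arid1b.

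The 36 genes had 92 probe sets, and none of the 92 passed in limma, the lowest adjusted p being the 0.181 of Chd6, whereas 0.424% of all probe sets were called higher and 0.133% lower. The other probe sets often pointed elsewhere: of 29 genes with over 1 probe set, 10 had differences of 1 sign and 19 had differences of both signs. The widest range was in Chd2, from -0.05 to 1.13, and in Chd4, from 0.12 to 1.12. The positive extremes of both came with low values on WT 2. After the values of WT 2 were seen, probe sets were counted in which 1 array lay over 0.5 log2 units below all others. WT 2 did so in 8 of the 92 (8.70%), against 1.86% of all probe sets, and in 8 of the 71 with a mean of at least 6 (11.3%), against 4.29% of all such probe sets. WT 2 also lay over 0.5 above all others in 4 of the 92 (4.35%), against 1.15% of all probe sets. Among those with a mean of at least 6 it did so in 1 of the 71 (1.41%), near the 1.35% of all such probe sets.

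These 8 probe sets belong to Chd4, with 2, and to Chd2, Smarca2, Smarca4, Smarca5, Pbrm1 and Mbd3. A probe set of Chd4 other than that used for the gene, 1436343_at, read 10.20, 10.36 and 9.83 on the IkL/L arrays, against 9.35, 7.47 and 10.22 on the WT arrays, a difference of 1.12, and 0.35 without WT 2. The second, 1438476_a_at, read 7.45, 7.51 and 7.33 on the IkL/L arrays, against 6.76, 5.32 and 7.41 on the WT arrays, a difference of 0.94, and 0.35 without WT 2. In both, WT 2 was far below the other 5 arrays, WT 1 was the next lowest and WT 3 lay within the IkL/L range. Chd2 probe set 1445843_at read 8.31, 8.53 and 8.43 on the IkL/L arrays, against 7.83, 5.66 and 8.38 on the WT arrays, a difference of 1.13, and 0.32 without WT 2. Smarca2 probe set 1452333_at gave 0.59, and 0.07 without WT 2, and Smarca4 probe set 1426805_at gave 0.39, and -0.12 without it. Of the 8 probe sets, that of Mbd3 was the one used for its gene. A reason for the low values of WT 2 was not tested.

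Other disagreements did not rest on WT 2 alone. The second probe set of Mbd2, 1425803_a_at, read 6.28, 6.15 and 6.71 on the IkL/L arrays, against 5.62, 5.37 and 6.29 on the WT arrays, a difference of 0.62 (limma, unadjusted p = 0.0353, adjusted p = 0.51), and 0.42 without WT 2. This stands beside -0.05 for the brighter probe set. The 4 probe sets of Rbbp4 had differences of 1 sign, from -0.11 to -0.05, but 1 of the dimmer ones, 1454875_a_at, read 8.33, 6.61 and 9.06 on the IkL/L arrays, against 8.10, 8.07 and 7.99 on the WT arrays. There the IkL/L arrays spread over more than 2 log2 units, and the difference was -0.05.

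**Figure D4:**
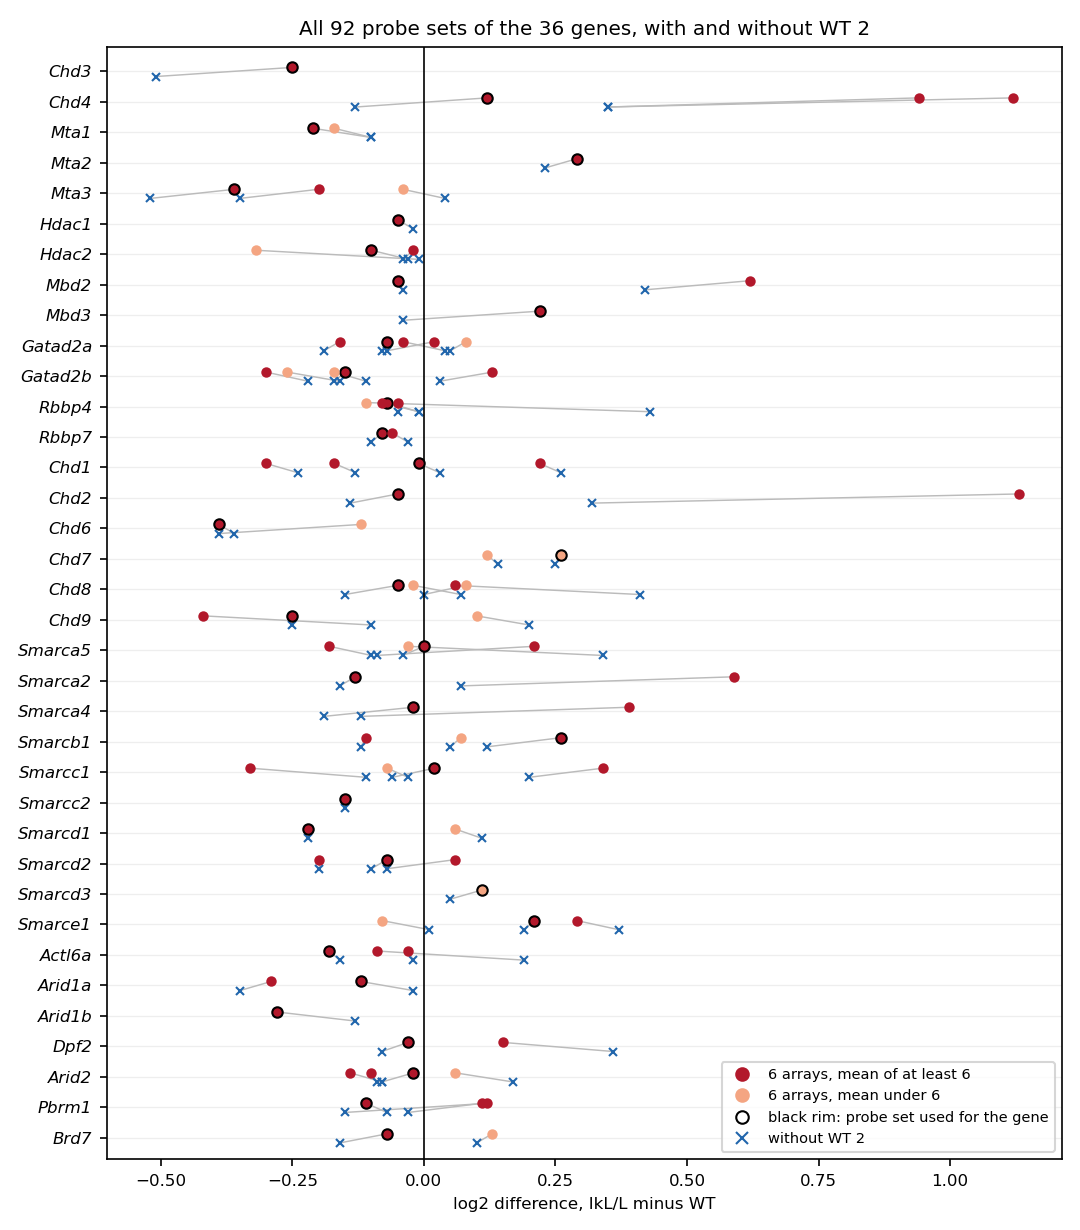
Log2 difference of IkL/L minus WT (horizontal axis) of the 92 probe sets of the 36 genes, from 6 arrays (circles; black rim, probe set used for the gene; pale, mean under 6) and without WT 2 (crosses, joined to their circle). The circles furthest to the right, of Chd2 and Chd4, move to between 0.32 and 0.35 without WT 2.

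The balance between interchangeable subunits was compared within each array for 15 pairs of paralogs, as the log2 ratio of the 2 genes centred on its mean over the 6 arrays. With 3 arrays against 3, the smallest p of a two-sided exact permutation test is 0.1, so no pair could pass. Chd4 over Chd3 was 0.09, 0.08 and 0.38 on the IkL/L arrays, against -0.35, -0.16 and -0.04 on the WT arrays. All IkL/L ratios were above all WT ratios, and in this ratio WT 2 lay between the other WT arrays. The difference was 0.37, or 1.29-fold (exact permutation p = 0.1, adjusted p = 0.5 over the 15 pairs). Smarcd3 over Smarcd1 and Smarcd3 over Smarcd2 also stood apart, with differences of 0.32 and 0.17 (exact permutation p = 0.1 for each), though Smarcd3 lay under the array medians. The differences of greatest size were those of Mta3 over Mta2, -0.65, and Mta2 over Mta1, 0.50, both with overlapping groups (exact permutation p = 0.2 for each). Without WT 2 they were -0.76 and 0.34, while Chd4 over Chd3 was 0.38 and Mta3 over Mta1, at -0.15 from all arrays, was -0.42. In the remaining 10 pairs the groups overlapped and the difference was 0.27 or less in size.

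**Figure D5:**
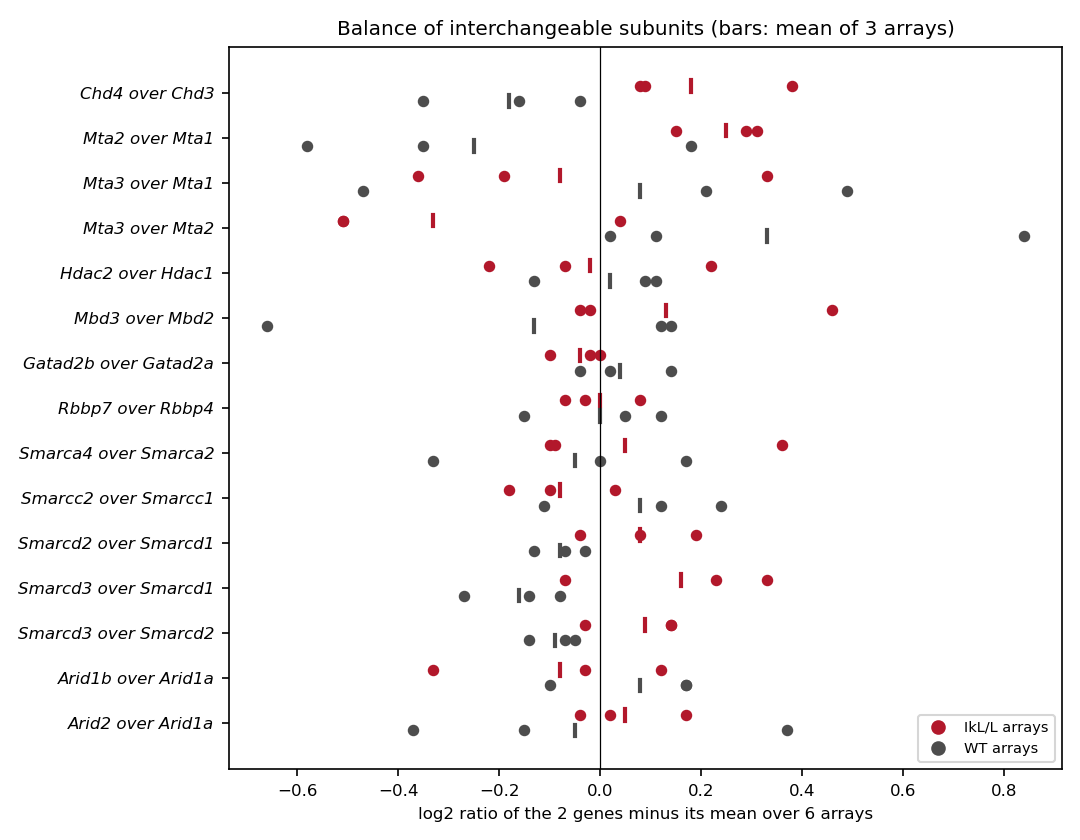
Log2 ratio of 2 paralogous subunits on each array, minus its mean over the 6 arrays (horizontal axis), for 15 pairs, with IkL/L arrays above WT arrays and bars for the mean of 3. The groups stand apart in Chd4 over Chd3, Smarcd3 over Smarcd1 and Smarcd3 over Smarcd2.

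Genes of neighbouring complexes were read in the same way. Of 54 further remodelling and corepressor genes, 52 were read and the others were not analysed here. None was called higher or lower by limma, beside 0.748% and 0.242% of all genes, and at an unadjusted limma p under 0.05 there were 0 higher and 3 lower (5.77%), beside 5.83% and 5.35%. Their median difference was -0.07, with 19 above 0 and 33 below (63.5%, beside 55.5% of all genes). In 2 (3.85%) every IkL/L array lay above every WT array and in 8 (15.4%) every one lay below, beside 7.62% and 9.59% of all genes. The 3 with an unadjusted p under 0.05 were Bicral, a subunit of the non-canonical SWI/SNF complex, Sin3a, the scaffold of the Sin3 deacetylase complex, and Baz2b, a bromodomain partner of ISWI.

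Bicral read 6.78, 6.72 and 6.71 on the IkL/L arrays, against 7.07, 7.25 and 7.21 on the WT arrays, a difference of -0.44 (limma, unadjusted p = 0.0017, adjusted p = 0.129). The genotypes were well apart beside the spread within each, as for Chd6. Under other processing with all arrays kept, the difference ran from -0.47 to -0.23. Of the 4 probe sets of Bicral, 3 had differences below 0. Its paralog Bicra gave -0.20 (limma, unadjusted p = 0.0535) and also stood apart, while Dpf1, a neuronal relative of Dpf2, gave 0.16 at levels under the array medians. Sin3a gave -0.34 (limma, adjusted p = 0.499), and 0.00 where probe sets of suffix _s_, _x_ or _a_ were left out, and 2 further genes of the Sin3 complex, Ing2 and Sap30, gave 0.30 and 0.22, with overlapping groups. Baz2b gave -0.29 (limma, adjusted p = 0.538), and 0.15 as the mean of its 5 probe sets. The DNA helicase Hells gave -0.31, and Smarca1, the ISWI paralog of Smarca5, gave -0.30 at levels under the array medians. Among CHD and NuRD-linked genes the 3 with the smallest p were Chd5, at -0.19 and under the array medians, Hdac3 at 0.11 and Mbd1 at -0.08.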

How the data were processed

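Total RNA (100 ng) of sorted LSK cells was amplified in 2 cycles and hybridised to Affymetrix mouse genome arrays, 3 for IkL/L and 3 for WT. The table deposited by the authors holds RMA values on a log2 scale, for which the submitters' notes name R 2.8. According to the methods, RMA was run on these and thymocyte arrays jointly, and it was not settled whether the deposited table is from that run. Its quantile step takes out changes in total RNA.

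Of 45037 probe sets, 34945 had 1 gene in the platform annotation, 932 several, and 9160 were not listed. Symbols were updated by Entrez number with a RefSeq table of GRCm38.p6 (34741 matched). A gene was read from its single-gene probe set of highest mean, and levels of different probe sets were otherwise not compared, except with the array medians.

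IkL/L minus WT was fitted over all probe sets by limma (version 3.58.1, under R 4.3.3), with a two-sided moderated test from lmFit and eBayes, no covariate, Benjamini-Hochberg adjustment and a threshold of 0.05. In data simulated on these arrays, calls were somewhat more often false than the nominal share. Values are mean ± SD of log2 values, n = 3. Nothing in the labels ties samples to batches. The p-values set the group difference against the spread between samples within the groups, moderated over all probe sets. That spread is between pools of 2 mice for IkL/L and between single mice for WT. The number of arrays limits the precision.

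The members, lists and tests were chosen with earlier results of these data known. Named with values are members past the threshold, those with an unadjusted p under 0.05 and groups apart, the motors Chd3, Chd4, Smarca2, Smarca4 and Smarca5, both deacetylases, Ikzf1, and up to 3 genes of each neighbouring list by p. Other members were given by their difference, and single probe sets were described after their values were seen. Marker genes with no single-gene probe set were not analysed here. Alternatives were other scalings, filters on dim probe sets, moderation, array weights, a replicate block, leaving out each array and other ways to read a gene.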

Additional observations from a re-analysis of the deposited data

How the results depend on the processing

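No member and no neighbouring gene was called under any of 15 alternatives, and the lowest adjusted p of a member was 0.124 in limma. Of 535 member differences so recomputed, 493 kept their sign and 42 changed it, in 16 members, while 20 members kept it throughout. The number of members with a 95% interval within 1.5-fold was 25 to 32. The paralog pairs could not reach the threshold in any fit, so their p-values bear on nothing here. Probe sets called numbered 251 in the reported fit, 355 with array weights, 325 with an intensity trend and robust moderation, 143 with the replicate block, and 57 to 287 with 1 array left out. Nothing in the labels says whether the replicate numbers pair the samples. Same-numbered arrays correlated at 0.008, -0.112 and 0.079 in their deviations, and other pairs at -0.129 to 0.12. With 3 arrays per group these correlations cannot settle it. With the block, Ikzf1 stayed at -0.68 and lost its call (limma, adjusted p = 0.118). With 1 array left out it ran from -0.73 to -0.64. With the mean of all probe sets of a gene, the median difference was 0.01 for SWI/SNF and 0.21 for its ATPases. Without probe sets of suffix _s_, _x_ or _a_, it was 0.44 for the NuRD ATPases and 0.28 for the SWI/SNF ATPases. These medians take in the probe sets that are low on WT 2.

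Signs changed as follows, and the cause was not tested. A second quantile normalization gave -0.02 for Smarca5 and -0.01 for Smarcc1, centring on the median gave 0.01 for Chd1, and array weights gave -0.02 for Chd4. The mean of all probe sets gave 0.29 for Mbd2, 0.54 for Chd2, 0.02 for Chd8, 0.23 for Smarca2, 0.19 for Smarca4, -0.01 for Smarcc1, 0.06 for Dpf2, 0.04 for Pbrm1, 0.03 for Brd7, 0.00 for Mbd1 and 0.15 for Baz2b. Probe sets without the suffixes gave 0.59 for Smarca2, 0.06 for Smarcd2, 0.12 for Pbrm1 and 0.00 for Sin3a. With 1 array left out, the range was -0.12 to 0.08 for Chd1, -0.07 to 0.08 for Smarca5, -0.19 to 0.07 for Smarca4, -0.06 to 0.13 for Smarcc1, -0.19 to 0.00 for Hdac2, -0.20 to 0.06 for Chd8, -0.08 to 0.07 for Arid2, -0.22 to 0.03 for Pbrm1, -0.16 to 0.03 for Brd7, -0.09 to 0.06 for Dpf2, -0.14 to 0.03 for Chd2, -0.13 to 0.26 for Chd4, -0.04 to 0.35 for Mbd3 and -0.16 to 0.02 for Mbd1.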

Other observations

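The 6 arrays did not share the extremes of the 36 genes evenly. WT 2 was the lowest or the highest array in 18 members (50%), as in 49.4% of genes with a mean of at least 6, and WT 3 was so in 3 members (8.33%), as in 21.9% of such genes. IkL/L 2 was the lowest array in 12 members (33.3%), against 16.2% of such genes, and in 7 of the 16 SWI/SNF genes. WT 1 was the highest array in 12 members (33.3%), against 17.9% of such genes. The SD between arrays of a genotype had a median of 0.126 for IkL/L and 0.138 for WT over the members, beside 0.125 for IkL/L and 0.135 for WT over all genes.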
